A study of Mus musculus with 6 samples.

Results

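Matrix metalloproteinases (MMPs) and tissue inhibitors of metalloproteinases (TIMPs) were followed in mouse primary mesangial cells, the support cells of the kidney glomerulus, with and without transforming growth factor beta 1 (TGF-β1). The members were 10 rows of the RNA-Seq table, chosen by gene symbol from 19730 rows: Mmp2, Mmp3, Mmp9, Mmp11, Mmp13, Mmp14, Mmp19, Timp1, Timp2 and Timp3. There were 3 Control libraries and 3 libraries labelled TGF-beta1, and each group carries replicate numbers 1 to 3. Both groups were cells of passages 3 to 6 cultured at 25.5 mM glucose with 20% serum in the medium. The treated group was exposed for 72 h to 10 ng/ml of TGF-β1. High glucose was therefore shared by the controls. The labels name neither a vehicle for the controls nor separate isolations for the replicates, so the p-values measure the spread between these libraries, which may be technical.

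MMPs are zinc endopeptidases that cut collagens and other components of the extracellular matrix. Most are secreted as inactive proenzymes, while the membrane-type MMPs stay on the cell surface. TIMPs bind the active site of MMPs and block them. TIMP2 has a second role, since together with the membrane-type enzyme MMP14 it captures the proenzyme of MMP2 at the cell surface, where a free MMP14 molecule cleaves it. In the glomerulus, mesangial MMP2 and the TIMPs are known as regulators of the turnover of the mesangial matrix and of the basement membrane.

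Levels are given in FPKM, the fragments of a transcript per kilobase of its length, scaled to the mapped fragments of the library, so that levels of different genes can be compared. Changes are given on the log2(FPKM + 1) scale with limma adjusted p-values over the 11898 rows whose mean reached 1 FPKM, and an adjusted p under 0.05 was called. The libraries held 10.11 to 11.08 M mapped fragments, as recovered from the value of 1 fragment. The replicate 2 libraries of both groups deviated from their group means together, with r = 0.232 across genes against at most 0.117 for other pairs of a control and a treated library. Of 10 listed TGF-β1 response genes, 9 rose and 1 fell, where 24.5% of all tested rows rose and 23.6% fell. The gene that fell was Tgfbi, from 3.41 ± 0.725 to 0.611 ± 0.254 FPKM (limma adjusted p 0.00116), named after its values were seen. The median change of the 10 genes was 2.0 against -0.017 over all tested rows. Of 8 mesangial markers, Acta2 (997 to 3887 FPKM on average), Mcam (16.1 to 77.9) and Cspg4 (0.0735 to 1.21) rose, Pdgfrb (37.5 to 29.2) fell, Gata3 was not called, and Itga8, Des and Thy1 stayed under 0.6 FPKM in all libraries. The summed tubule markers were at 125 to 160.3 FPKM in the controls and 6.45 to 7.91 FPKM in the treated libraries, mostly Cdh16, and Aqp1 fell from 10.4 ± 1.62 to 0.169 ± 0.0855 FPKM (SD, n = 3). Not all tubule markers fell. In a fit of all rows, Slc12a1 was called higher (0.0615 to 0.377 FPKM on average) and Lrp2 lower (1.43 to 0.230). Cdh1 was not called, and Epcam, Umod and Slc34a1 had no row. The summed podocyte markers were at 19.7 to 24.9 and 12.6 to 13.7 FPKM, and all 3 of those tested fell, where 23.6% of all tested rows did. Summed endothelial markers stayed at or below 0.822 FPKM. The part of other cell types in the results was not tested.

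Transcripts of the family were concentrated in a few genes. With TGF-β1 the membrane-type enzyme gene Mmp14, the gelatinase gene Mmp2 and the inhibitor gene Timp1 rose, while the inhibitor gene Timp2 and the stromelysin gene Mmp11 fell. Timp3 and Mmp19 were not called. Mmp3, Mmp9 and Mmp13 lay at or near 0 in both groups and did not pass the filter on low values. Of the 7 members tested, 5 were called, where 48.1% of all tested rows were. Of these, 3 rose and 2 fell, against 24.5% and 23.6% of all tested rows. The same 5 did not overlap between the groups, where 29.9% of tested rows lay wholly higher and 29.5% wholly lower. The members' median change was 0.04. Rescaling all rows to a common FPKM sum moved the median of all rows to 1.22 and left 0 rows called, and the changes of Timp2 and Mmp11 were then 0.99 and 0.67, below that median. The sums behind that rescaling ran from 841618 to 2997563963 FPKM. Size factors from the median ratio of each library to the geometric mean over libraries ran from 0.996 to 1.022. With these size factors, 3 members were called higher and 2 lower.

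**Figure D1:**
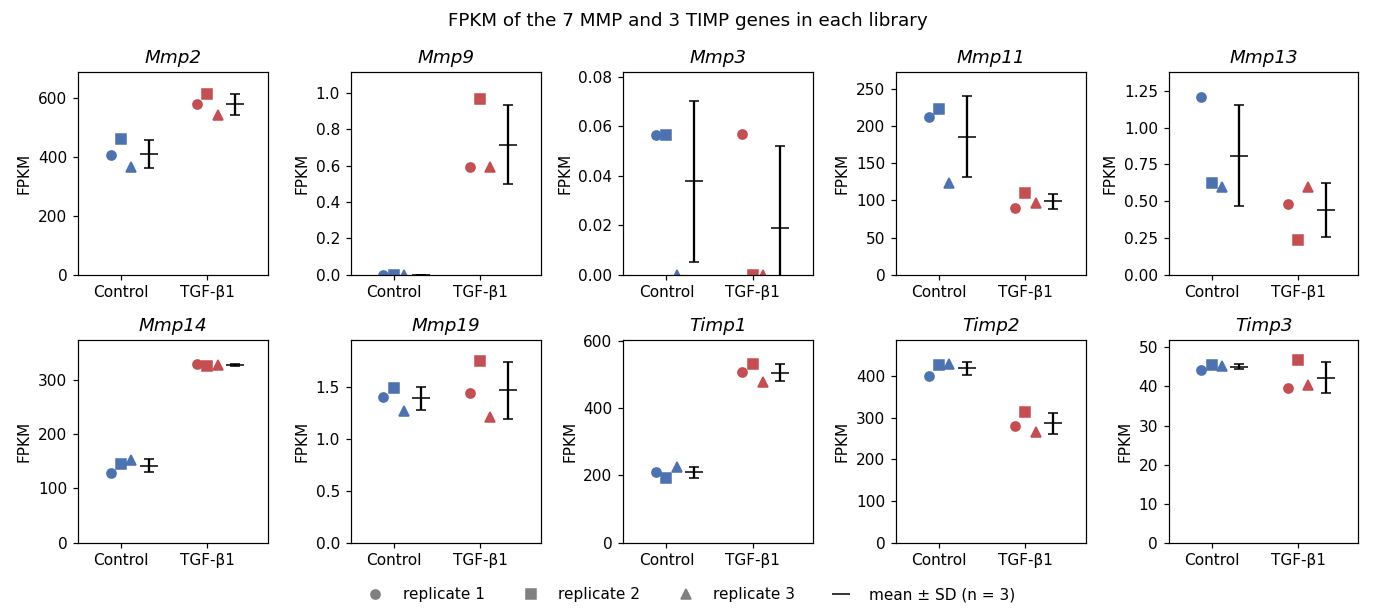
FPKM (vertical axes, each from 0) of the 7 MMP and 3 TIMP genes in the 3 Control (blue) and 3 TGF-β1 (red) libraries, with marker shapes for the replicate number and a black bar for mean ± SD. Mmp2, Mmp14 and Timp1 lie higher with TGF-β1 in all 3 libraries, Timp2 and Mmp11 lie lower, and Mmp3, Mmp9 and Mmp13 stay under 1.3 FPKM.

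MMP14 is the membrane-bound collagenase that activates proMMP2. Its gene Mmp14 (mm9 chromosome 14, 55050441 to 55060095, plus strand, a single annotated transcript) was at 128, 145 and 152 FPKM in Control replicates 1 to 3 and at 329.6, 325 and 328 FPKM with TGF-β1. Every treated library was thus above every control, and the treated libraries differed by less than 5 FPKM. The mean rose from 142 ± 12.3 to 328 ± 2.33 FPKM (SD, n = 3), which is 2.31-fold. On the log2 scale the change was 1.20 (SE 0.089, limma adjusted p 1.53e-04), and 13.9% of all tested rows were called with a change of at least 1.

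MMP2, or gelatinase A, cuts denatured collagen and type IV collagen, the network collagen of basement membranes. Mmp2 (mm9 chromosome 8, 95351227 to 95377316, plus strand, a single annotated transcript) was at 409, 461 and 366 FPKM in the controls and at 582, 613 and 543 FPKM with TGF-β1. It was the most abundant of the MMP members in all 6 libraries, and in Control its level exceeded that of 98.8% of protein-coding rows. The mean rose 1.41-fold, from 412 ± 47.45 to 579.5 ± 34.95 FPKM (log2 change 0.50, 95% confidence interval 0.22 to 0.77, limma adjusted p 0.0125). The groups did not overlap, which was so for 59.4% of all tested rows. This call was lost with quantile normalization, at an adjusted p of 0.105.

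MMP11, or stromelysin 3, is a secreted MMP that furin activates inside the cell. Mmp11 (mm9 chromosome 10, 75385967 to 75400678, minus strand) was at 211, 222 and 123 FPKM in Control and at 90.0, 110 and 95.7 FPKM with TGF-β1. The groups did not overlap, but Control replicate 3 lay nearer to the treated libraries than to the other controls. The mean fell from 186 ± 54.5 to 98.5 ± 10.2 FPKM, 1.88-fold lower (log2 change -0.86, SE 0.236, limma adjusted p 0.0246). The call did not hold without Control replicate 1, Control replicate 2, TGF-β1 replicate 1 or TGF-β1 replicate 3, at adjusted p-values of 0.0716 to 0.0798. Within replicates 1 and 3 alone it was 0.101. The row names a transcript of 335 nt, marked for nonsense-mediated decay, of a gene whose longest annotated transcript has 2288 nt, so the level itself is less certain than those of Mmp2 and Mmp14. The values would correspond to 134 to 334 fragments with the named length and 2063 to 5137 with the longest. A further gene on the same strand, Gm867, shares 73 nt of exon with Mmp11.

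MMP19 is a secreted MMP outside the collagenase, gelatinase and stromelysin groups. Mmp19 (mm9 chromosome 10, 128228009 to 128237880, plus strand) was at 1.41, 1.495 and 1.27 FPKM in Control and at 1.45, 1.75 and 1.21 FPKM with TGF-β1. The groups overlapped fully. The change was 0.04, with a 95% confidence interval of -0.28 to 0.36 (limma adjusted p 0.816). About 42 to 56.9 fragments stood behind these values, and 1110012D08Rik on the opposite strand shares 789 nt of exon.

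The remaining MMP members rested on few fragments. MMP3 and MMP13, stromelysin 1 and a collagenase, are typical products of inflamed stromal cells, and MMP9, or gelatinase B, is made in abundance by leukocytes. Mmp3 (mm9 chromosome 9, 7445822 to 7455972) rested on 1 fragment in each of Control replicates 1 and 2 and TGF-β1 replicate 1 and was listed at 0 in the other 3 libraries. A fold change has no meaning at this level.

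Mmp13 (mm9 chromosome 9, 7272514 to 7283333) was at 1.21, 0.622 and 0.600 FPKM in Control and at 0.479, 0.239 and 0.597 FPKM with TGF-β1. These values correspond to 33.1, 17 and 16 fragments in Control and to 13, 6 and 16 fragments in the treated libraries. By FPKM the groups did not overlap, which was so for 44.1% of all rows, but the lowest control and the highest treated library held 16 fragments each. Without the filter on low values the change was -0.32 (95% confidence interval -0.72 to 0.08, limma adjusted p 0.203).

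Mmp9 (mm9 chromosome 2, 164766280 to 164781350) was listed at 0 in all 3 controls and at 0.591, 0.966 and 0.590 FPKM with TGF-β1. No fold is given against a group listed at 0. Without the filter it was called, with a change of 0.77 (SE 0.096, limma adjusted p 0.00218), where 14.6% of all rows were called higher and 30.5% in either direction. The row names a transcript of 416 nt, and the number of fragments behind it depends on the length used. It would be 1.4 to 2.1 fragments with that length and 19 to 29.1 with the longest annotated transcript of 3175 nt. The neutrophil markers S100a8 and Mpo were listed at 0 in every treated library, and of the other marker genes searched for this cell type, 5 had no row. Of the macrophage markers, Ptprc was at or below 0.05 FPKM in all libraries, while the summed level of the 6 listed genes with a row was 87.0 to 114 FPKM in the controls and 9.03 to 11.3 FPKM in the treated libraries. Most of that sum was Cd14, which fell from 94.3 ± 13.6 to 7.71 ± 0.819 FPKM, and Csf1r fell from 6.27 ± 0.979 to 0.411 ± 0.156 FPKM. Cd68 was not called, at 2.79 ± 0.836 and 2.22 ± 0.448 FPKM (limma adjusted p 0.393). Itgam and Lyz2 stayed at or below 0.36 FPKM in all libraries. The part of other cell types in the Mmp9 values was not tested.

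Promoter sequences were compared between members near 0 and abundant members. The RefSeq promoter table (build GRCm38.p6, 250 bases before to 50 after the start) held 7 of the 10 members, all but Mmp2, Mmp9 and Mmp19. Matches were searched on both strands for the AP-1 site TGAGTCA, where FOS and JUN proteins bind, whose reverse complement is TGACTCA. The GC box GGGCGG, where SP1 binds, was searched likewise, with CCGCCC as its reverse complement. The TATA box TATAAA was searched in the direction of the gene alone. Mmp3 and Mmp13 each held 1 AP-1 site and 1 TATA box and no GC box. The AP-1 site began 46 bases before the start in Mmp3 and 35 bases before it in Mmp13, shown here in windows of 30 bases, 5′ to 3′ on the plus strand, with the motif in capitals.
Mmp3, chr9:7445765-7445794, AP-1 site: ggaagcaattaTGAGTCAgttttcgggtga
Mmp13, chr9:7272468-7272497, AP-1 site: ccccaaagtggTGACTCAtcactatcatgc
Mmp3, chr9:7445803-7445832, TATA box: acacaaccactcTATAAAagttgggcttaa
Mmp13, chr9:7272486-7272515, TATA box: tcactatcatgcTATAAAatagaagatgct

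The windows of Mmp11, Mmp14, Timp1, Timp2 and Timp3 showed the reverse, with 1 to 4 GC boxes and no AP-1 site or TATA box of these letters. The GC box nearest to the start is shown in capitals for 3 of them, which rose (Mmp14, Timp1) or fell (Timp2) with TGF-β1.
Mmp14, chr14:54431573-54431602, plus strand: gcattggggcggGGGCGGaggagaggctgt
Timp1, chrX:20870146-20870175, plus strand: ttatcctggggcCCGCCCctaggctttgac
Timp2, chr11:118355431-118355460, minus strand: ctggggagggctGGGCGGcgcggcgcggga
Over all 32851 promoters in the table, 5.20% held the AP-1 site, 8.32% the TATA box and 35.7% the GC box. A match describes these letters in this window and is no evidence of binding, and GC boxes stood both in genes that rose and in genes that fell. Nor were GC boxes particular to abundant genes of the family. Mmp24, Mmp25 and Mmp28, with means under 1 FPKM in both groups, held 2 to 3 GC boxes and no AP-1 site. Mmp8, Mmp27 and Timp4, also with means under 1 FPKM, held none of these motifs.

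**Figure D2:**
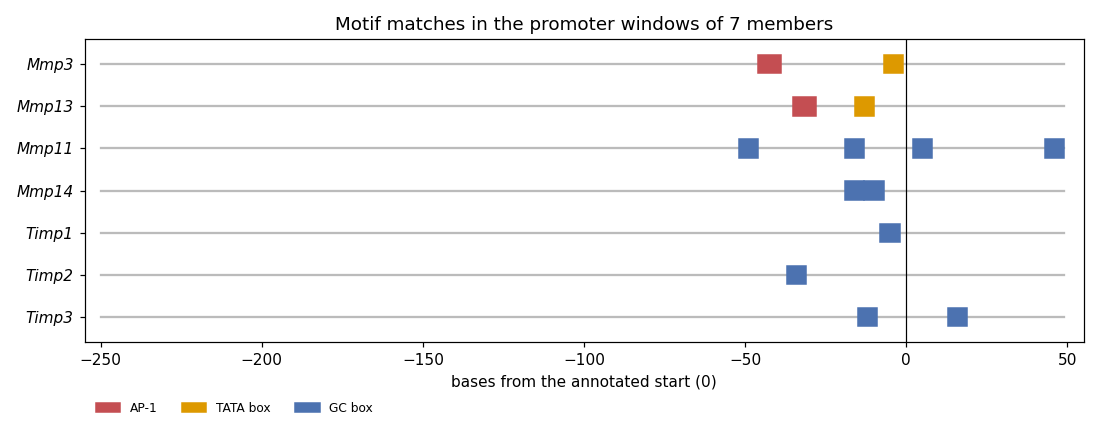
Positions of AP-1 sites (red), TATA boxes (orange) and GC boxes (blue) in the promoter windows of 7 members, by distance in bases from the annotated start (vertical line). Mmp3 and Mmp13 carry an AP-1 site 46 and 35 bases before the start, and the other 5 genes carry GC boxes only.

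TIMP1 is a secreted inhibitor that TGF-β1 is known to induce in fibroblasts. Timp1 (mm9 chromosome X, 20447292 to 20451861, plus strand) was at 209, 193 and 225 FPKM in Control and at 508, 531 and 479 FPKM with TGF-β1. The lowest treated library was more than double the highest control. The mean rose 2.42-fold, from 209 ± 15.9 to 506 ± 25.8 FPKM (log2 change 1.27, SE 0.092, limma adjusted p 1.43e-04), the largest increase among the members tested. Within replicates 1 and 3 alone the change was 1.18 (limma adjusted p 0.00385).

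Timp1 lies inside Syn1, a synapsin gene on the opposite strand, with no exon shared. Timp3 lies inside Syn3 and Timp4 inside Syn2. Whether FPKM estimation used the strand is not stated. Syn1 rose from 1.53 ± 0.158 to 12.6 ± 0.535 FPKM, so Timp1 exceeded it by 122 to 155 times in Control and by 36.5 to 42.2 times with TGF-β1. The part of Timp1 fragments in the Syn1 value was not tested.

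TIMP2 inhibits MMPs in general and also serves as the bridge between MMP14 and proMMP2. Timp2 (mm9 chromosome 11, 118162383 to 118217054, minus strand) was at 400.2, 426 and 428 FPKM in Control and at 279, 315 and 266 FPKM with TGF-β1. Every treated library was lower than every control. The mean fell by 31.5%, from 418 ± 15.7 to 287 ± 25.1 FPKM (log2 change -0.55, 95% confidence interval -0.77 to -0.32, limma adjusted p 0.00417). With 10115 to 16544 fragments per library, counting error was small beside the spread between replicates.

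TIMP3 is the inhibitor that stays bound to the matrix and also blocks ADAM proteases. Timp3 (mm9 chromosome 10, 85763117 to 85812251, plus strand) was at 44.3, 45.5 and 45.3 FPKM in Control and at 39.7, 46.8 and 40.3 FPKM with TGF-β1. The treated libraries lay on both sides of the controls, with TGF-β1 replicate 2 above all of them. The change was -0.09, with a 95% confidence interval of -0.30 to 0.12 (limma adjusted p 0.416). It shares 1733 nt of exon with Syn3 on the opposite strand, and Syn3 itself stayed at or below 1.080 FPKM.

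**Figure D3:**
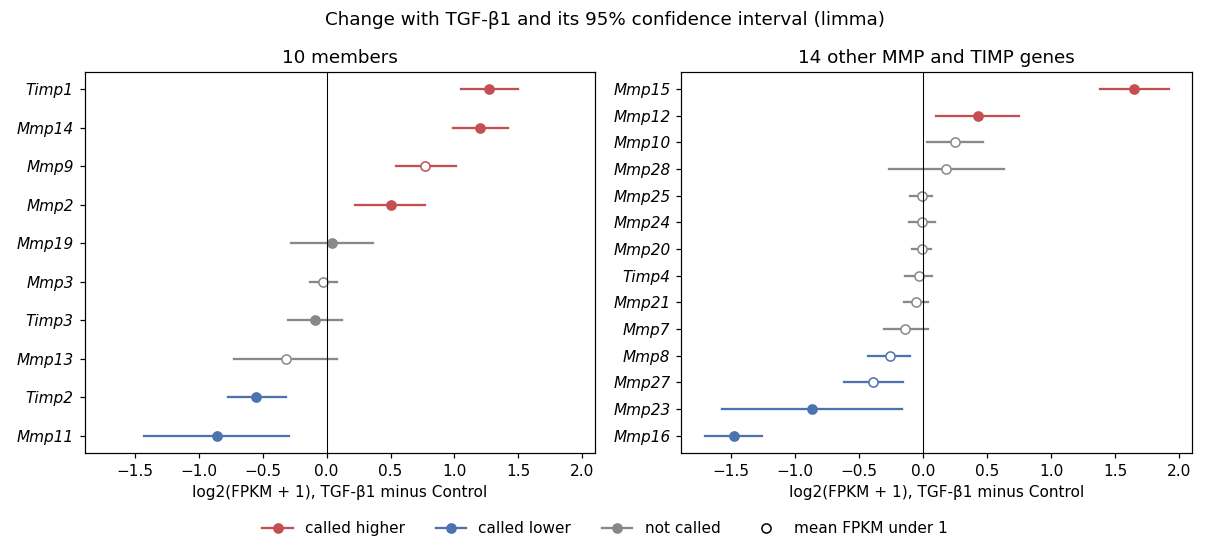
Change with TGF-β1 on the log2(FPKM + 1) scale (horizontal axis) with its 95% confidence interval for the 10 members (left) and 14 other MMP and TIMP genes (right), coloured by call, with open circles for genes with a mean FPKM under 1. Timp1 and Mmp14 lie highest among the members at 1.27 and 1.20, and Mmp11 and Timp2 lie lowest at -0.86 and -0.55.

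The levels were next set against each other within each library. Any scaling between libraries cancels in the ratios and shares, but not in the sums. These sums and ratios were given as values with no test, and the pairs of genes were chosen after their values were seen. The order of the TIMP transcripts differed between the groups. Timp2 made up 61.3 to 64.1% of the TIMP sum in the Control libraries and 33.8 to 35.3% with TGF-β1, while Timp1 made up 29.1 to 32.2% and 59.5 to 61.5%. The ratio of Timp1 to Timp2 averaged 0.50 ± 0.0405 over the controls and 1.77 ± 0.0723 over the treated libraries (SD, n = 3). Timp3 held 4.80 to 6.84% of the sum in all 6 libraries.

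The transcripts of the MMP2 activation complex shifted as well. Timp2 exceeded Mmp14 by 3.12, 2.93 and 2.81 times in Control replicates 1 to 3, and the ratio was 0.846, 0.968 and 0.811 with TGF-β1. The level of Timp2 was thus above that of Mmp14 in every control and below it in every treated library. The ratio of Timp2 to Mmp2 was 1.02 ± 0.128 in Control and 0.494 ± 0.0173 with TGF-β1. Mmp14 took 17.1 to 23.7% of the MMP sum in Control and 30.9 to 33.8% with TGF-β1, and the share of Mmp11 was 19.1 to 28.1% and 8.97 to 10.5%. The MMP sum, and so each share of it, includes the less certain level of Mmp11. The share of Mmp2 overlapped between the groups, at 54.4 to 56.9% and 56.0 to 58.3%.

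The sum of the 7 MMP members was 742 ± 94.1 FPKM in Control and 1008 ± 40.8 FPKM with TGF-β1, and that of the 3 TIMPs was 672 ± 23.6 and 835 ± 53.7 FPKM. Both sums were higher in every treated library than in every control. Their ratio was 1.15, 1.25 and 0.921 over the controls and 1.22, 1.18 and 1.23 over the treated libraries, and these overlapped. The ratio depended on which genes entered it. Leaving out Mmp11 gave 0.829 ± 0.0849 for the controls and 1.09 ± 0.0314 for the treated libraries. Leaving out Mmp2 and Timp1 gave 0.713 ± 0.111 and 1.31 ± 0.0909. RNA levels do not give enzyme activity, since proenzymes and inhibitors were not measured as proteins. In bulk RNA, fewer cells that express a gene and less RNA per cell cannot be told apart.

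**Figure D4:**
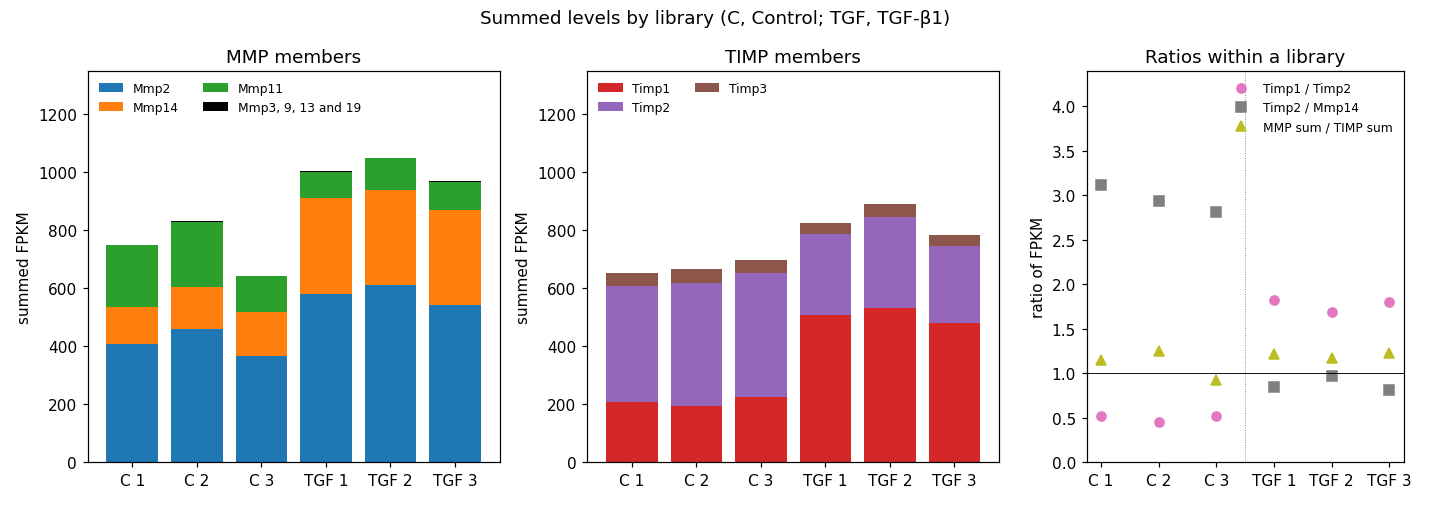
Summed FPKM of the MMP members (left) and TIMP members (middle) by library, stacked by gene from 0, and 3 ratios of FPKM within each library (right; line at 1). Timp1 replaces Timp2 as the larger TIMP share with TGF-β1, and the Timp2 to Mmp14 ratio is 2.81 to 3.12 in Control and 0.811 to 0.968 with TGF-β1.

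The rest of the family was searched under 17 further symbols, of which 14 had a row and 4 passed the filter on low values. Mmp15, which encodes a membrane-type MMP close to MMP14, was at 2.02, 2.14 and 1.88 FPKM in Control and at 9.38, 7.40 and 8.69 FPKM with TGF-β1. It rose 4.22-fold (log2 change 1.65, SE 0.111, limma adjusted p 1.11e-04). Mmp16, a further membrane-type gene, was at 9.29, 8.80 and 8.10 FPKM in Control and at 2.37, 2.63 and 2.43 FPKM with TGF-β1. It was 3.53-fold lower (log2 change -1.48, SE 0.092, limma adjusted p 8.01e-05). The Mmp16 row, like that of Mmp11, names a transcript marked for nonsense-mediated decay.

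Mmp12, the macrophage elastase gene, rose from 4.50 ± 0.819 to 6.37 ± 0.547 FPKM (limma adjusted p 0.0390), and Mmp23 fell from 1.74 ± 0.869 to 0.457 ± 0.258 FPKM (limma adjusted p 0.0477). Both calls were weak. When single libraries were dropped, the call of Mmp12 held only without Control replicate 3 and that of Mmp23 only without Control replicate 1. Both missed the threshold without the filter on low values (limma adjusted p 0.0708 and 0.0663), and Mmp23 also did with a pseudocount of 0.1 (0.0588) and with quantile normalization (0.141). The Mmp12 row names a transcript of 362 nt of a gene whose longest has 4474 nt. Its values would correspond to 6.7 to 11.4 fragments with the named length and 176 to 299 with the longest. The Mmp23 values rested on 2.0 to 32.9 fragments.

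The other 10 rows had a mean under 1 FPKM. Without the filter, Mmp8, a collagenase of neutrophils, was called lower, at 0.241, 0.362 and 0.247 FPKM in Control and at 0.121, 0.0877 and 0 FPKM with TGF-β1 (limma adjusted p 0.0295). Mmp27 was called lower as well, at 0.530, 0.266 and 0.230 FPKM in the controls and no higher than 0.0631 FPKM in the treated libraries (limma adjusted p 0.0241). These rest on at most 10 fragments in any library, where 16% of all rows were called lower without the filter. Mmp10, Mmp28, Mmp7, Mmp20, Mmp21, Mmp24, Mmp25 and Timp4 were not called, and the last 6 stayed at or below 0.206 FPKM in all libraries. Mmp10 ranged from 0.534 to 0.610 FPKM over the controls and from 0.715 to 1.03 FPKM over the treated libraries (limma adjusted p 0.0911).

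Genes of the MMP cluster on mouse chromosome 9 had low levels throughout. The 8 cluster genes with a row (Mmp13, Mmp12, Mmp3, Mmp10, Mmp8, Mmp27, Mmp20 and Mmp7) lie within 427 kb on mm9 (7272514 to 7699585). None of them exceeded 6.91 FPKM in any library, and 7 of the 8 stayed below 2 FPKM. Low levels were not particular to the cluster. Outside it, Mmp9, Mmp15, Mmp16, Mmp19, Mmp21, Mmp23, Mmp24, Mmp25 and Mmp28 stayed at or below 9.385 FPKM, and Mmp2, Mmp11 and Mmp14 were between 90.0 and 613 FPKM. In the promoter table, 5 of the 15 other family genes found there held an AP-1 site in at least 1 window, and these were Mmp1a, Mmp1b, Mmp7, Mmp10 and Mmp12, all of this cluster.

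Genes of proteins that activate, bind or restrain MMPs were taken from a list of 21, of which 16 were tested. Of these, 9 rose and 2 fell, with a median change of 0.52, where 24.5% of all tested rows rose and 23.6% fell. Reck, a membrane-anchored inhibitor of several MMPs, was at 5.24, 5.05 and 7.17 FPKM in Control and at 1.96, 1.59 and 2.38 FPKM with TGF-β1. It was 2.94-fold lower (log2 change -1.19, SE 0.164, limma adjusted p 0.00172). Furin, the proprotein convertase that activates MMP14 and MMP11, rose 2.25-fold, from 21.7 ± 4.59 to 48.97 ± 2.76 FPKM (limma adjusted p 0.00133). Bsg encodes a surface protein known as an inducer of MMPs in neighbouring cells. It ranged from 693 to 803 FPKM over the controls and from 509 to 734 FPKM over the treated libraries. Bsg was not called (limma adjusted p 0.197), but with quantile normalization it was called lower (log2 change -0.49, limma adjusted p 0.0275).

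Plasmin, formed by the plasminogen activators, can activate several proMMPs. Plau, the urokinase gene, rose 5.77-fold, from 2.58 ± 0.300 to 14.9 ± 1.07 FPKM (limma adjusted p 3.35e-05). Plat, the gene of the tissue-type activator, was 1.96-fold lower, from 105 ± 1.64 to 53.8 ± 2.96 FPKM (limma adjusted p 1.75e-04). Htra1, a secreted serine protease, rose from 16.8 ± 2.98 to 80.9 ± 5.40 FPKM (limma adjusted p 7.66e-05).

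Transcription factors known to bind MMP promoters were called higher in 4, lower in 4 and not at all in 5 of 13 tested genes, with a median change of 0.08. These counts lay near the shares over all tested rows, 24.5% higher and 23.6% lower. The 3 largest changes by the rule for named genes were increases of ETS family genes. Etv4 rose from 13.6 ± 1.503 to 46.8 ± 1.34 FPKM, Etv5 from 1.68 ± 0.129 to 7.61 ± 1.62 FPKM and Ets1 from 4.72 ± 0.746 to 14.3 ± 0.543 FPKM, with limma adjusted p-values of 5.77e-05, 3.09e-04 and 1.92e-04. Junb, an AP-1 gene, was at 36.9, 7.88 and 27.4 FPKM in Control and at 125, 1.23 and 125 FPKM with TGF-β1, with the replicate 2 value lowest in each group, and it was not called (limma adjusted p 0.773). Fos fell from 5.27 ± 1.12 to 1.54 ± 0.117 FPKM (limma adjusted p 9.84e-04). Fos and Junb were chosen after their values were seen.

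Genes of matrix proteins that MMPs cut were taken from a list of 20, of which 18 were tested. Of these, 10 rose and 6 fell, with a median change of 0.36, beside 24.5% and 23.6% of all tested rows. Fn1, the fibronectin gene, rose from 386 ± 63.4 to 3134 ± 103 FPKM. Nid2, a basement membrane linker, fell from 26.0 ± 3.46 to 1.05 ± 0.183 FPKM, and Dcn, a small proteoglycan that binds collagen and TGF-β, fell from 104 ± 1.92 to 3.30 ± 0.472 FPKM. Changes in these 3 genes were 3.03, -3.72 and -4.62 on the log2 scale, beyond that of any member. Among the TGF-β1 response genes, large changes were those of Ctgf, from 48.2 ± 19.4 to 1154 ± 152 FPKM, and Pmepa1, from 19.1 ± 2.02 to 288.5 ± 102 FPKM.

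**Figure D5:**
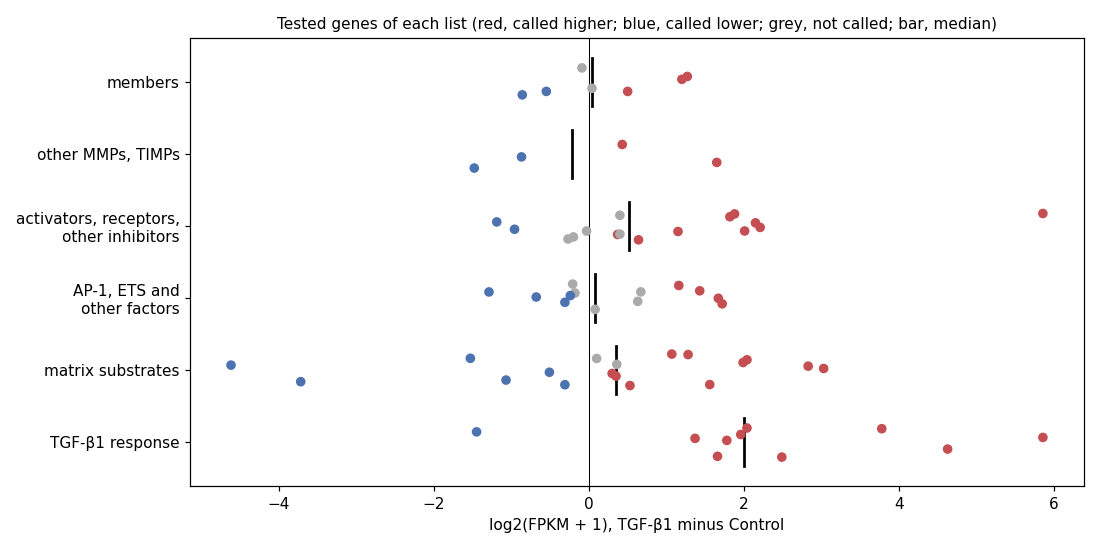
Change with TGF-β1 on the log2(FPKM + 1) scale (horizontal axis) for every tested gene of each list, with a black bar at the list's median. The members range from -0.86 to 1.27 around a median of 0.04, and the TGF-β1 response genes have a median of 2.0.

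Over the 6 libraries the rows most like Timp1 by Pearson's r of log2(FPKM + 1) were Hspa9 (0.9998), BC028471 (0.9996) and Acta2 (0.9995), and those most like Mmp11 were Gm17279 (0.9988), 2310044G17Rik (0.9969) and Gm17132 (0.9967). With 2 groups of 3, such values are set mainly by the difference between the groups and are given as a description. Gm17132 was at 206, 199 and 111 FPKM in Control and at 74.4, 91.4 and 78.4 FPKM with TGF-β1. This row was picked for its likeness to Mmp11 over these same libraries. Its low value in Control replicate 3 is therefore no support for that of Mmp11.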

How the data were processed

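RNA-Seq was analysed in 3 Control and 3 TGF-β1 libraries of mouse primary mesangial cells. Reads that passed the authors' quality filter were aligned by TopHat to mm9, and Cufflinks gave the FPKM values (the submitters' processing notes name TopHat2 2.0.11). The deposited FPKM values have 1 column per library and no stated scaling between libraries. Counts were not used here, so the count model of the study was replaced by limma 3.58.1 (R 4.3.3) on log2(FPKM + 1), with eBayes and its trend option. Tests were two-sided, and p-values were adjusted by Benjamini-Hochberg over all tested rows. Rows under a mean of 1 FPKM were taken from the same fit without the filter. Fragments were recovered as FPKM times length, assuming fragments of 200 nt. In single-transcript coding genes at least 99.4% of low values lay within 5% of a fragment of a whole number. For genes with several transcripts the numbers are approximate. Whether a row holds its gene or only the transcript it names is not stated. Positions are mm9 (GENCODE M1), except promoters (GRCm38.p6). The fit was tested on simulated data.

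The members and lists were chosen with earlier results of these data known. Named genes were all members, every other family gene with a row, the 3 largest non-overlapping called changes of each further list, and Reck, Bsg, Furin, Plau and Plat. A gene that the rule also names is not reported here. Alternatives covered the pseudocount, filter, scaling, threshold, replicates and batch. Python 3.11.15, pandas 2.3.3 and matplotlib 3.10.9 were used.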

Additional observations from a re-analysis of the deposited data

How the results depend on the processing

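The calls of Mmp14, Timp1 and Timp2 held under every alternative except the rescaling of all rows to a common sum, with changes of 1.0 to 1.26, 1.06 to 1.33 and -0.77 to -0.50. That rescaling called 0 of 17780 rows by limma (9 at an unadjusted p under 0.05), 0 members higher and 0 lower. The sums it equalises ran from 841618 to 2997563963 FPKM. Replicate 2 had the lowest sum in each group, 841618 FPKM with TGF-β1 and 2122482 FPKM in Control, against at least 280854641 FPKM elsewhere. The rescaling shifted the median of all rows to 1.22. In it the changes of Mmp11 (0.67), Mmp13 (0.34), Timp2 (0.99), Timp3 (1.43), Reck (0.04), Bsg (1.26) and Plat (0.57) turned positive, all but Timp3 and Bsg below that shift. At an adjusted p under 0.01, 3672 of the 5721 rows called at 0.05 remained, with 2 members higher, since Mmp2 was lost, and 1 lower. Mmp19 was at -0.01 within replicates 1 and 3 and at -0.04 without TGF-β1 replicate 2, and up to 0.12 without TGF-β1 replicate 3. The count of members called lower was 1 within replicates 1 and 3, where Mmp11 was lost, and 1 to 2 with single libraries left out, where 4419 to 5446 rows were called. The cause of the lost call was not tested. With quantile normalization 2 members were called higher.

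Deviations of same-numbered libraries had correlations of 0.092, 0.232 and 0.085, so the numbers were not taken as pairs. With the replicate number as a block, 5391 rows, 3 members higher and 2 lower were called, and the call of Mmp12 and that of Mmp23 were lost.

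The ratio of summed MMP to TIMP levels was 1.11 in Control and 1.21 with TGF-β1. It was 0.713 and 1.31 without Mmp2 and Timp1, and 0.829 and 1.09 without Mmp11, an alternative chosen after the data were seen. Mmp3 rested on at most 1 fragment a library, Mmp13 on 6 to 33.1.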
